A study of Mus musculus with 26 samples.

Results

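Translation initiation factor genes were followed in double positive cells, the T-cell precursor stage that carries CD4 and CD8 at its surface, taken from 3 tissues. The members were all genes whose symbol starts with Eif and a digit from 1 to 6, leaving out the Eif2ak kinases. The symbol rule used no measured value and found 50 of the 13765 genes of the expression table. The symbols Eif2c1, Eif2c2 and Eif2c3 are older names of the Argonaute genes Ago1, Ago2 and Ago3. These act in gene silencing by small RNAs and not in initiation. The other 47 members were placed in listed role groups, and some of them, such as Eif4a3 and Eif5a, have roles outside initiation. All 50 members passed the filter on low values that left 9106 genes for testing.

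The study sorted viable CD4+ CD8b+ cells without a surface T-cell receptor from thymus, mediastinal adipose tissue (the fat of the central chest) and aortic arch. All mice were female C57BL/6J, 8 weeks old, with no genotype or treatment difference given in the labels, and each tissue pool joined 5 mice. Lots of 400 cells were sorted and each polyadenylated RNA library was made from 200 of them, so the results describe the cells that passed this gate. The arch and adipose tissue were digested before sorting, a step not stated for the thymus, so that tissue and digestion cannot be told apart. The table holds 1 column per pool, 4 for each tissue, which combine 9 thymus, 8 adipose and 9 arch libraries.

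Initiation places a ribosome at the start codon of a messenger RNA. The factor eIF2 brings the initiator tRNA to the small ribosomal subunit, eIF2B reloads eIF2 with GTP after each round, and eIF3 scaffolds the subunit. The eIF4 group binds the cap of the messenger and unwinds its leader, eIF1 and eIF1A let the subunit scan for the start codon, and eIF5 triggers GTP hydrolysis on eIF2 once the codon is found. Cells regulate this step largely through the eIF2 kinases and through mTORC1, the growth kinase complex that frees the cap binding protein eIF4E from its inhibitors.

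Depth ranged from 11577253 to 34599519 reads per column. The sum of 10 thymocyte identity genes, among them Cd4, Cd8a, Rag1, Rag2 and Ptcra, was 21640 to 24866 CPM (counts scaled to a common column total) in thymus, 8105 to 13663 in adipose and 8569 to 10233 in arch pools. Together these genes thus held a smaller share outside the thymus. The sum does not show which of the 10 were detected in each column. Of 61 listed markers of other cell types (fibroblast, smooth muscle, endothelial, macrophage, B, natural killer and fat cells), 47 were in the table. Every gene of the table had at least 10 reads in total, so none could be at 0 in every column. The 47 markers summed to 446 to 819 CPM in thymus, but to 3056 in adipose pool 1, 3599 in arch pool 2 and 6687 in arch pool 4, against 339 to 527 in the other 5 pools. The sum of 14 heat shock and immediate early genes, which tissue digestion is known to raise, came to 1095 to 1945 CPM in thymus, 3035 to 7004 in adipose and 15294 to 22550 in arch pools. The stress sum thus ranked thymus, adipose, arch without overlap. Its part in the differences given below was not tested.

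Eif1, Eif4a1 and Eif5 are the 3 initiation factor genes that rose in arch cells and the members on which the results turn. Their upstream sequences are shown first so that the start regions can be compared. They come from the RefSeq promoter table of build GRCm38.p6 and run 5′ to 3′ on the gene's strand from 250 bases before the RefSeq start. The last 64 bases for Eif1 and the last 85 for Eif5 were left out because longer annotated transcripts begin there. Eif1 lies at chr11:100319699-100319884 (plus strand), Eif4a1 at chr11:69672424-69672673 (minus strand) and Eif5 at chr12:111537851-111538015 (plus strand). Capitals mark matches to CGTCA, which reads TGACG on the other strand and is 1 unit of the cyclic AMP response element, to CACGTG, the E-box, and to the CCAAT box.
Eif1: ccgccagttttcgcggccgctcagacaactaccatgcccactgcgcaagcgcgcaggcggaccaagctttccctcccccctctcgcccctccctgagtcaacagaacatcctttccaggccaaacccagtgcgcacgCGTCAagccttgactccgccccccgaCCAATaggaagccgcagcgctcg
Eif4a1: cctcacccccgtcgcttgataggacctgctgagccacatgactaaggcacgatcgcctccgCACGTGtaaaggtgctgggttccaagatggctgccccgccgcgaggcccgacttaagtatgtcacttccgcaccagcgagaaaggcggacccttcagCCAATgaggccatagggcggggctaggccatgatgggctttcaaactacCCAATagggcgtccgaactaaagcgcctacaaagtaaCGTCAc
Eif5: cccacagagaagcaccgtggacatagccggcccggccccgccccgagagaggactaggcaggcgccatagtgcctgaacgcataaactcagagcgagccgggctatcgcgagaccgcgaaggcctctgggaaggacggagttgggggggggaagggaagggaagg

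The search covered both strands of the full 250 upstream bases. TGACG, which is also the first part of TGACGTCA, stood in 50% of the 52 member windows (21 genes), in 29.4% of the windows of tested genes and in 17.8% of all 32851 windows. Eif1 held it at bases 113 to 109 and again at 8 to 4 before the start, the latter outside the stretch shown, and Eif4a1 at 6 to 2. The full cyclic AMP response element TGACGTCA stood in 0 member windows, in 2.94% of tested and in 1.55% of all windows. CACGTG stood in 21.2% of member, 8.74% of tested and 6.02% of all windows, with Eif4a1 holding it at bases 189 to 184. CCAAT stood in 26.9%, 36.2% and 33.8% of these windows. The heat shock unit pairs GAANNTTC and TTCNNGAA stood in 7.69% and 5.77% of member windows against 6.69% and 7.17% of all, and neither was in the windows of Eif1, Eif4a1 or Eif5. The Eif5 window held none of the letters searched. A start with C and then 4 pyrimidines, the terminal oligopyrimidine start, was found at 3.85% of member and 2.51% of all starts. The genes with it were Eif2s3x and Eif3f. These matches describe letters, 39 of the 50 members had a window, and the single response element unit, the E-box and the CCAAT box were chosen after the sequences had been read.

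Levels between genes are compared as normalised read counts per kilobase of annotated exon sequence. In thymus, Eif1 was the highest member at 13370 ± 775 per kilobase (SD, n = 4), followed by Eif5a at 9103 ± 827, Eif3h at 5889 ± 825 and Eif4a1 at 5104 ± 674. Eif5a, which carries the modified amino acid hypusine and helps the ribosome through difficult stretches, and Eif3h, an eIF3 subunit, were separated by more than these SDs, while Eif3h and Eif4a1 were not. At the low end stood Eif2c2 at 7.39 ± 14.2 and Eif2c3 at 15.8 ± 14.1 per kilobase. In arch cells Eif1 stood at 28115 ± 1242 per kilobase and Eif4a1 at 9029 ± 953, the latter beside Eif5a at 8806 ± 2348 and Eif3h at 8408 ± 1610, which it did not exceed by more than the SD. Together the members took 12331 to 13826 CPM of the thymus columns, 13907 to 16195 of the adipose columns and 15166 to 17259 of the arch columns. Thymus pools were below all others, and adipose and arch pools overlapped. Without Eif1, Eif4a1 and Eif5, which were chosen for this step by their calls, the sums were 9607 to 10872, 9899 to 11518 and 10417 to 11804 CPM, and the 3 tissues overlapped.

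**Figure D1:**
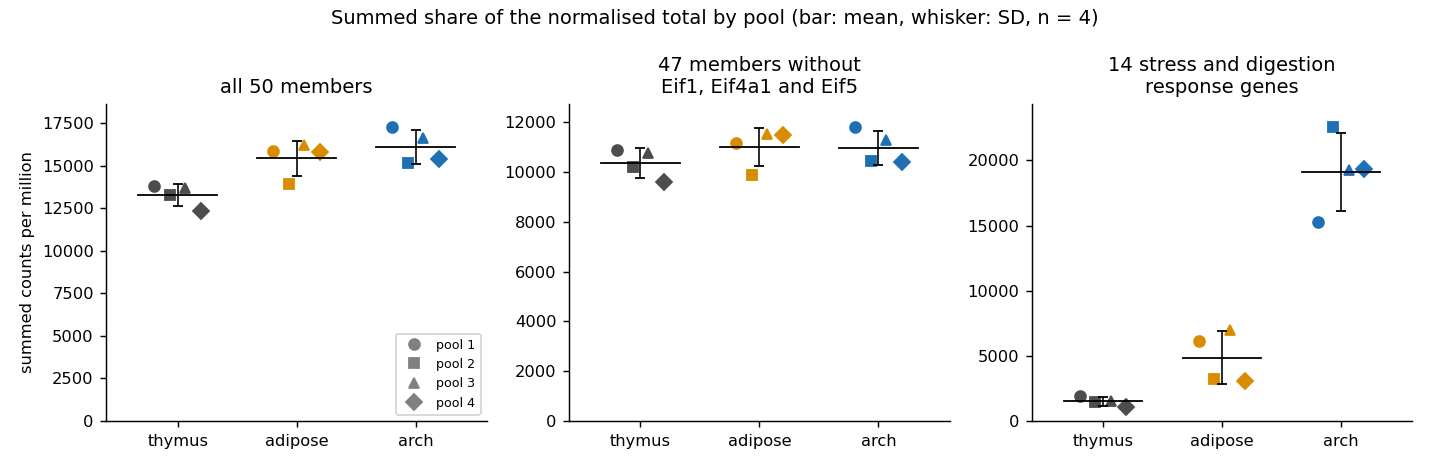
Summed CPM (y axis) in each of the 12 pools by tissue, for all 50 members, for the 47 members without Eif1, Eif4a1 and Eif5, and for 14 stress and digestion response genes; points are pools, bars the mean and whiskers the SD (n = 4). The member sums are lowest in thymus, between 12331 and 13826, the sums without the 3 genes overlap among tissues, and the stress gene sums do not overlap.

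Arch against thymus was the comparison with the most calls among all tested genes. Members that rose in arch cells were Eif1 (2.10-fold), Eif5 (2.00-fold) and Eif4a1 (1.77-fold), and no member fell. The gene-wise test was limma on log2(normalised read count + 20) over all 9106 genes, and called means a Benjamini-Hochberg adjusted p under 0.05. Across all tested genes 3.99% were called higher and 2.58% lower, against 3 and 0 of the 50 members, so the members' share of higher calls was close to the background. At an unadjusted p under 0.05, 11 members were higher and 1 lower (22% and 2%, against 10.3% and 12.4% of all tested genes). edgeR and DESeq2 also called no member lower. The median log2 change was 0.15 over the members and -0.20 over all tested genes. Estimates above 0 were found for 31 of the 50 members (62%) and for 42.7% of all tested genes. The median of all tested genes depended on the fit. It was -0.01 without the 3 pools with raised markers of other cells and -0.07 with DESeq2. The members' median in those fits is not given here. The p-values measure the spread between these pools. In bulk samples such as these, fewer cells that express a gene and less RNA per cell cannot be told apart.

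Eif1, which keeps the scanning subunit from stopping at a wrong codon, was the clearest member. Its normalised read counts were 28654, 30023, 27185 and 26342 in thymus pools 1 to 4, 50164, 41612, 47087 and 41967 in adipose pools and 61808, 56887, 56659 and 60591 in arch pools. Every arch pool was above every adipose pool and every adipose pool above every thymus pool. The arch to thymus difference was 1.07 ± 0.13 on the log2 scale (SE; 95% confidence interval 0.80 to 1.34), a fold of 2.10 (limma, adjusted p = 2.6e-05). It was called in all 12 fits that left out 1 pool. Without the 3 pools with raised markers of other cells the difference was 1.08, and without the 3 pools with the fewest reads per library it was 1.06. The latter were thymus pool 3 and arch pools 2 and 4. Both fits thus left out arch pools 2 and 4, so on the arch side they are not separate checks.

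Eif5, the factor that makes eIF2 hydrolyse its GTP at the start codon, stood at 7959, 5261, 7375 and 6187 in thymus, 12599, 6919, 11446 and 10792 in adipose and 14149, 11489, 13546 and 14013 in arch pools. All arch pools were above all thymus pools, and adipose pool 2 lay inside the thymus range. The arch to thymus difference was 1.00 ± 0.22 on the log2 scale (95% confidence interval 0.54 to 1.47; limma, adjusted p = 0.00919), which was called in all 12 fits without 1 pool. The annotated exons of Eif5 also hold the small nucleolar RNA gene Snora28, listed separately in the table, and whether counting used strand is not given in the sources used here.

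Of the other genes listed in the scanning group none was called in the fit of all 12 pools. Eif1b, a close paralogue of Eif1, stood at 3414 to 5657 in thymus and 1482 to 5018 in arch pools, and its estimate was -0.42 ± 0.36, so the rise of Eif1 was not accompanied by a called change of its paralogue. Eif1a and Eif1ax, near-identical genes for eIF1A whose reads may be split, had estimates of 1.07 ± 0.45 and -0.44 ± 0.36. Eif5b, the GTPase that joins the ribosomal subunits, was at 0.62 ± 0.48, and Eif1ad at 0.54 ± 0.41. Eif1ad was called higher without the 3 pools with raised markers of other cells, and its estimate ranged from 0.12 to 0.94 in the fits without 1 pool of either tissue.

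Eif4a1, the helicase that unwinds messenger leaders, had counts of 21250, 26102, 22007 and 19122 in thymus, 28180, 34570, 37610 and 34152 in adipose and 39950, 36046, 44644 and 35878 in arch pools. All thymus pools were below all pools of the other tissues, and adipose and arch overlapped. In arch against thymus the difference was 0.83 ± 0.15 on the log2 scale (95% confidence interval 0.50 to 1.15), a fold of 1.77 (limma, adjusted p = 0.0023), called in all 12 fits without 1 pool. The small RNA genes Gm22988 and Gm24029 lie within its annotated exons on the same strand and have no separate values in the table.

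The other eIF4A genes and cofactors were not called in arch cells. Eif4a2, the paralogue of Eif4a1, stood at 6104 to 9339 in thymus and 5897 to 13026 in arch pools (0.42 ± 0.24). Eif4a3, which sits in the exon junction complex, was at 0.44 ± 0.21, and the helicase stimulators Eif4b and Eif4h were at 0.03 ± 0.57 and 0.03 ± 0.23. The log2 ratio of Eif4a1 to Eif4a2 within a pool, taken after adding 20 to each value, was 1.57 ± 0.23 in thymus (SD, n = 4) and 1.97 ± 0.48 in arch, with overlapping pools (two-sided exact permutation test, p = 0.171).

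**Figure D2:**
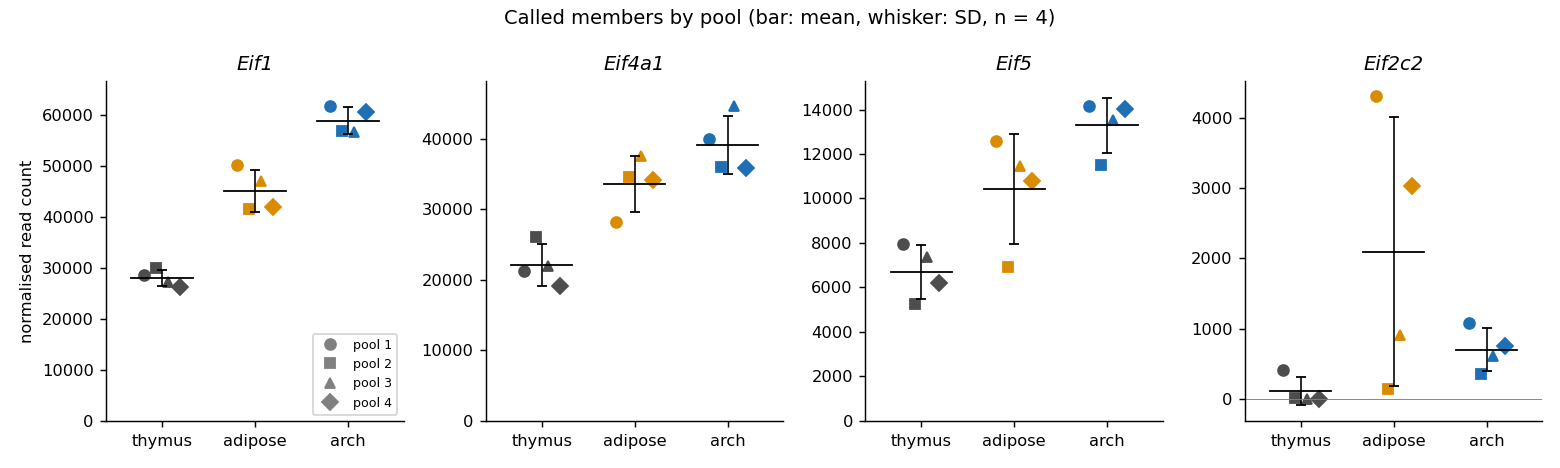
Normalised read count (y axis) of the 4 members called in any comparison, by tissue; points are the 12 pools, bars the mean and whiskers the SD (n = 4). Eif1 is separate in all 3 tissues, between 26342 and 30023 in thymus and 56659 and 61808 in arch, while the adipose values of Eif2c2 spread from 137 to 4309.

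The 12 eIF3 subunits in the table had a median log2 change of 0.44 in arch against thymus with 10 estimates above 0, and none was called. Eif3e stood at 5945, 5885, 4097 and 3977 in thymus, 5687, 4676, 6144 and 4522 in adipose and 7655, 11289, 7722 and 7163 in arch pools. All arch pools were above the pools of both other tissues, and pool 2 was far above the rest. The estimate was 0.76 ± 0.24 (limma, adjusted p = 0.0686), and 0.62 without arch pool 2. Eif3h had 7549 to 10546 in thymus, 10548 to 14045 in adipose and 11291 to 17228 in arch pools, an estimate of 0.51 ± 0.20 (limma, adjusted p = 0.133). DESeq2 on the recovered reads called Eif3e and Eif3h higher, with adjusted p = 0.0102 and 0.0436. The lowest estimates of the complex were those of Eif3b, at -0.40 ± 0.58, and Eif3f, at -0.06 ± 0.22.

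Subunits of eIF2 were not called. Eif2s1 encodes the alpha subunit, whose phosphorylation by the eIF2 kinases lowers initiation. It had 3825 to 6231 in thymus, 3241 to 5568 in adipose and 2683 to 5994 in arch pools (arch against thymus -0.08 ± 0.30, 95% confidence interval -0.71 to 0.56). Eif2s2, the beta subunit, had 1986 to 5416 in thymus and 5149 to 7909 in arch pools (0.81 ± 0.30; limma, adjusted p = 0.116). Eif2s3x, the gamma subunit, was at -0.05 ± 0.30. The alternative initiator tRNA carriers Eif2a and Eif2d were at 0.93 ± 0.56 and -0.43 ± 0.82.

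The exchange factor eIF2B was likewise without a call, and 3 of its 5 subunit genes had an estimate below 0. Eif2b3, the gamma subunit, was 688, 35.9, 602 and 314 in thymus, 73.8, 253, 389 and 619 in adipose and 0, 9.51, 292 and 0 in arch pools. Arch pools 1, 2 and 4 were at or near 0, and pool 3 lay inside the thymus range. Its estimate of -2.78 ± 1.18 was not called (limma, adjusted p = 0.167). Eif2b2, the beta subunit and the highest of the 5, had 3387 to 4345 in thymus and 536 to 4254 in arch pools (-0.78 ± 0.48), and without arch pool 2, the pool at 536, the estimate was -0.10.

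The cap binding genes and their inhibitors were measured with unequal precision. Eif4e, the cap binding protein of regulated initiation, had 3677, 5478, 3021 and 1888 in thymus, 3854, 7985, 4802 and 4243 in adipose and 4789, 7721, 6480 and 7211 in arch pools. Arch values were mostly above thymus, but arch pool 1 was below thymus pool 2. The estimate was 0.97 ± 0.33 (limma, adjusted p = 0.0819), and it was called without thymus pool 2 (1.22, adjusted p = 0.0403) but in none of the other 11 fits without 1 pool.

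The inhibitors that bind eIF4E had a median estimate of -1.39 over 4 genes, all below 0 and none called. Eif4ebp1 stood at 429, 246, 49.5 and 139 in thymus, 360, 611, 223 and 377 in adipose and 7.33, 426, 199 and 0 in arch pools. Arch pools 1 and 4 were at or near 0, and pool 2 was close to the highest thymus pool. The estimate was -1.16 ± 1.12 (95% confidence interval -3.51 to 1.20). Eif4ebp2 had 249 to 927 in thymus and 63.7 to 657 in arch pools (-1.62 ± 0.87), and Eif4ebp3 was at -1.62 ± 1.30. Eif4enif1, which carries eIF4E to the nucleus and to processing bodies, was at -0.07 ± 0.64. The log2 ratio of Eif4ebp1 to Eif4e was -4.11 ± 1.05 in thymus, -3.69 ± 0.44 in adipose and -6.24 ± 2.07 in arch pools (SD, n = 4). Arch and adipose pools overlapped (difference -2.55, two-sided exact permutation test, p = 0.0571, adjusted p over the 9 ratio tests 0.257), as did arch and thymus pools (p = 0.171). The size of the arch values is set largely by the 20 added before taking logs, since Eif4ebp1 was 0 in pool 4 and 7.33 in pool 1. With 5 added instead, the difference to adipose was -3.32.

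**Figure D3:**
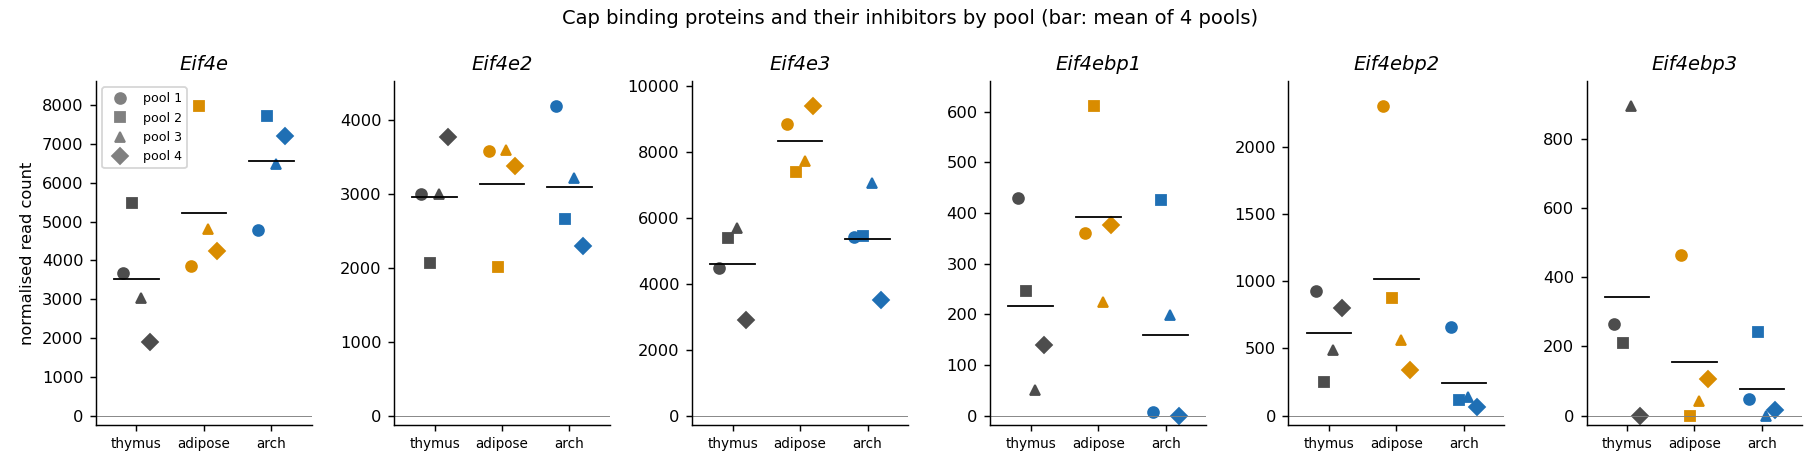
Normalised read count (y axis, separate scale per gene) of 3 cap binding genes and 3 inhibitor genes by tissue; points are pools and bars means of 4 pools. Eif4e3 is highest in adipose, where its 4 pools lie above all others, and the Eif4ebp genes are low and spread within each tissue.

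The eIF4G scaffolds, eIF5A and eIF6 had estimates near 0 or wide intervals in arch against thymus. Eif4g2 encodes a scaffold that lacks the eIF4E binding part and serves cap-independent initiation. Its counts of 22566 to 33756 in thymus, 28214 to 33441 in adipose and 23847 to 33602 in arch pools gave 0.04 ± 0.16, with a 95% confidence interval of -0.30 to 0.38 that leaves out a fold change as large as that of Eif1. Eif4g1, the main scaffold, was at 815 to 1870 in thymus and 502 to 836 in arch pools (-0.58 ± 0.52), and Eif4g3 was at -1.82 ± 1.06. Eif5a was at -0.09 ± 0.19 (95% confidence interval -0.50 to 0.32). Eif6, which keeps the large ribosomal subunit from joining early, had 2209 to 3394 in thymus and 827 to 4337 in arch pools (-0.26 ± 0.42). The log2 ratio of Eif4g1 to Eif4g2 was -4.70 ± 0.59 in thymus and -5.32 ± 0.46 in arch (SD, n = 4; two-sided exact permutation test, p = 0.171).

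Counting pools without a model, 5 members (Eif1, Eif3e, Eif3h, Eif4a1 and Eif5) had all arch pools above all thymus pools and 0 had all arch pools below, where 6.60% and 6.64% of all tested genes did so.

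Adipose against thymus uses the same thymus pools as controls, so its values are not independent of those above. Members that rose in adipose cells were Eif1 (1.61-fold), Eif4a1 (1.52-fold) and the Argonaute gene Eif2c2, and none fell. Of all tested genes 2.17% were called higher and 0.670% lower, and the 3 of 50 stood above the former by a margin that rests on calls close to the threshold. At an unadjusted p under 0.05, 6 members were higher and 0 lower (12% and 0%, against 7.98% and 4.83% of all tested genes). edgeR and DESeq2 called no member lower. The members' median was 0.20 and that of all tested genes -0.01. The pools were separate for 4 members with adipose above (Eif1, Eif3h, Eif4a1 and Eif4e3) and for 0 with adipose below, against 5.48% and 4.99% of all tested genes. Eif3h was only just separate, with 10546 in thymus pool 2 and 10548 in adipose pool 2.

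Eif1 rose by 0.69 ± 0.13 on the log2 scale (95% confidence interval 0.42 to 0.95), a fold of 1.61 (limma, adjusted p = 0.00363), and was called in all 12 fits without 1 pool. Eif4a1 was higher by 0.61 ± 0.15 (limma, adjusted p = 0.036), but the call was lost when thymus pool 1, 3 or 4 or adipose pool 2, 3 or 4 was left out, with adjusted p up to 0.136, while the estimate stayed between 0.54 and 0.69 in the fits without 1 pool of either tissue. Its ratio to Eif4a2 was 1.97 ± 0.07 in adipose on the log2 scale against 1.57 ± 0.23 in thymus (SD, n = 4), with separate pools. The difference of 0.40 had p = 0.0286 by a two-sided exact permutation test, the smallest p that 4 against 4 pools allow, and 0.257 adjusted over the 9 ratio tests. A single ratio at this smallest p could not reach an adjusted p under 0.05 over 9 tests, so the adjusted value decides nothing here. Eif5 was not called (0.62 ± 0.22; limma, adjusted p = 0.182), and it was called by DESeq2 (adjusted p = 0.0369) and by limma without adipose pool 2, at 0.81.

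Eif2c2, the Argonaute gene whose protein cuts messengers paired to a small RNA, had 403, 12, 0 and 0 in thymus, 4309, 137, 906 and 3036 in adipose and 1081, 346, 608 and 754 in arch pools. Thymus pool 1 was above adipose pool 2 and arch pool 2, so neither tissue was separate from thymus, and the adipose pools spread by more than the arch pools. The estimate was 4.61 ± 1.16 (95% confidence interval 2.17 to 7.05; limma, adjusted p = 0.0352), the widest interval among the called members. The call held in 2 of the 8 fits without 1 pool of the tissues compared (without thymus pool 1 or adipose pool 2) and was lost with edgeR (adjusted p = 0.317) and DESeq2 (0.146). In arch against thymus the estimate was 3.79 ± 1.16 (limma, adjusted p = 0.0575), called without thymus pool 1 (adjusted p = 0.0166) and without adipose pool 2 (0.0356). Adipose pool 1, where the count was highest, was a pool with raised markers of other cells, and without the 3 such pools the estimate was 3.98 (adjusted p = 0.132). The annotated exons of Eif2c2 overlap those of Chrac1 on the opposite strand. The related Eif2c1 and Eif2c3 were at -1.60 ± 1.02 and 1.24 ± 0.82 in adipose against thymus.

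Eif4e3, a cap binding protein outside the main eIF4F complex, was the member with all adipose pools above the pools of both other tissues. It had 4472, 5383, 5702 and 2890 in thymus, 8861, 7383, 7713 and 9403 in adipose and 5420, 5436, 7062 and 3506 in arch pools. Thymus and arch pools overlapped. The estimate was 0.89 ± 0.27 against thymus (limma, adjusted p = 0.0993), which DESeq2 called (0.0201), as did limma without the 3 pools with the fewest reads per library (1.01). In arch against adipose the estimate was -0.67 ± 0.27 (limma, adjusted p = 0.424).

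The remaining groups held no call in adipose cells. The eIF3 subunits had a median of 0.10 with 9 of 12 estimates above 0, from -0.64 for Eif3b to 0.36 for Eif3h. The eIF2B genes had a median of -0.04, with Eif2b4, the delta subunit, highest at 1.21 ± 0.52 (limma, adjusted p = 0.319). The eIF4E inhibitors had a median of -0.03, made of Eif4ebp1 at 1.03 ± 1.12, Eif4ebp2 at 0.51 ± 0.87, Eif4enif1 at -0.57 ± 0.64 and Eif4ebp3 at -0.98 ± 1.30.

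**Figure D4:**
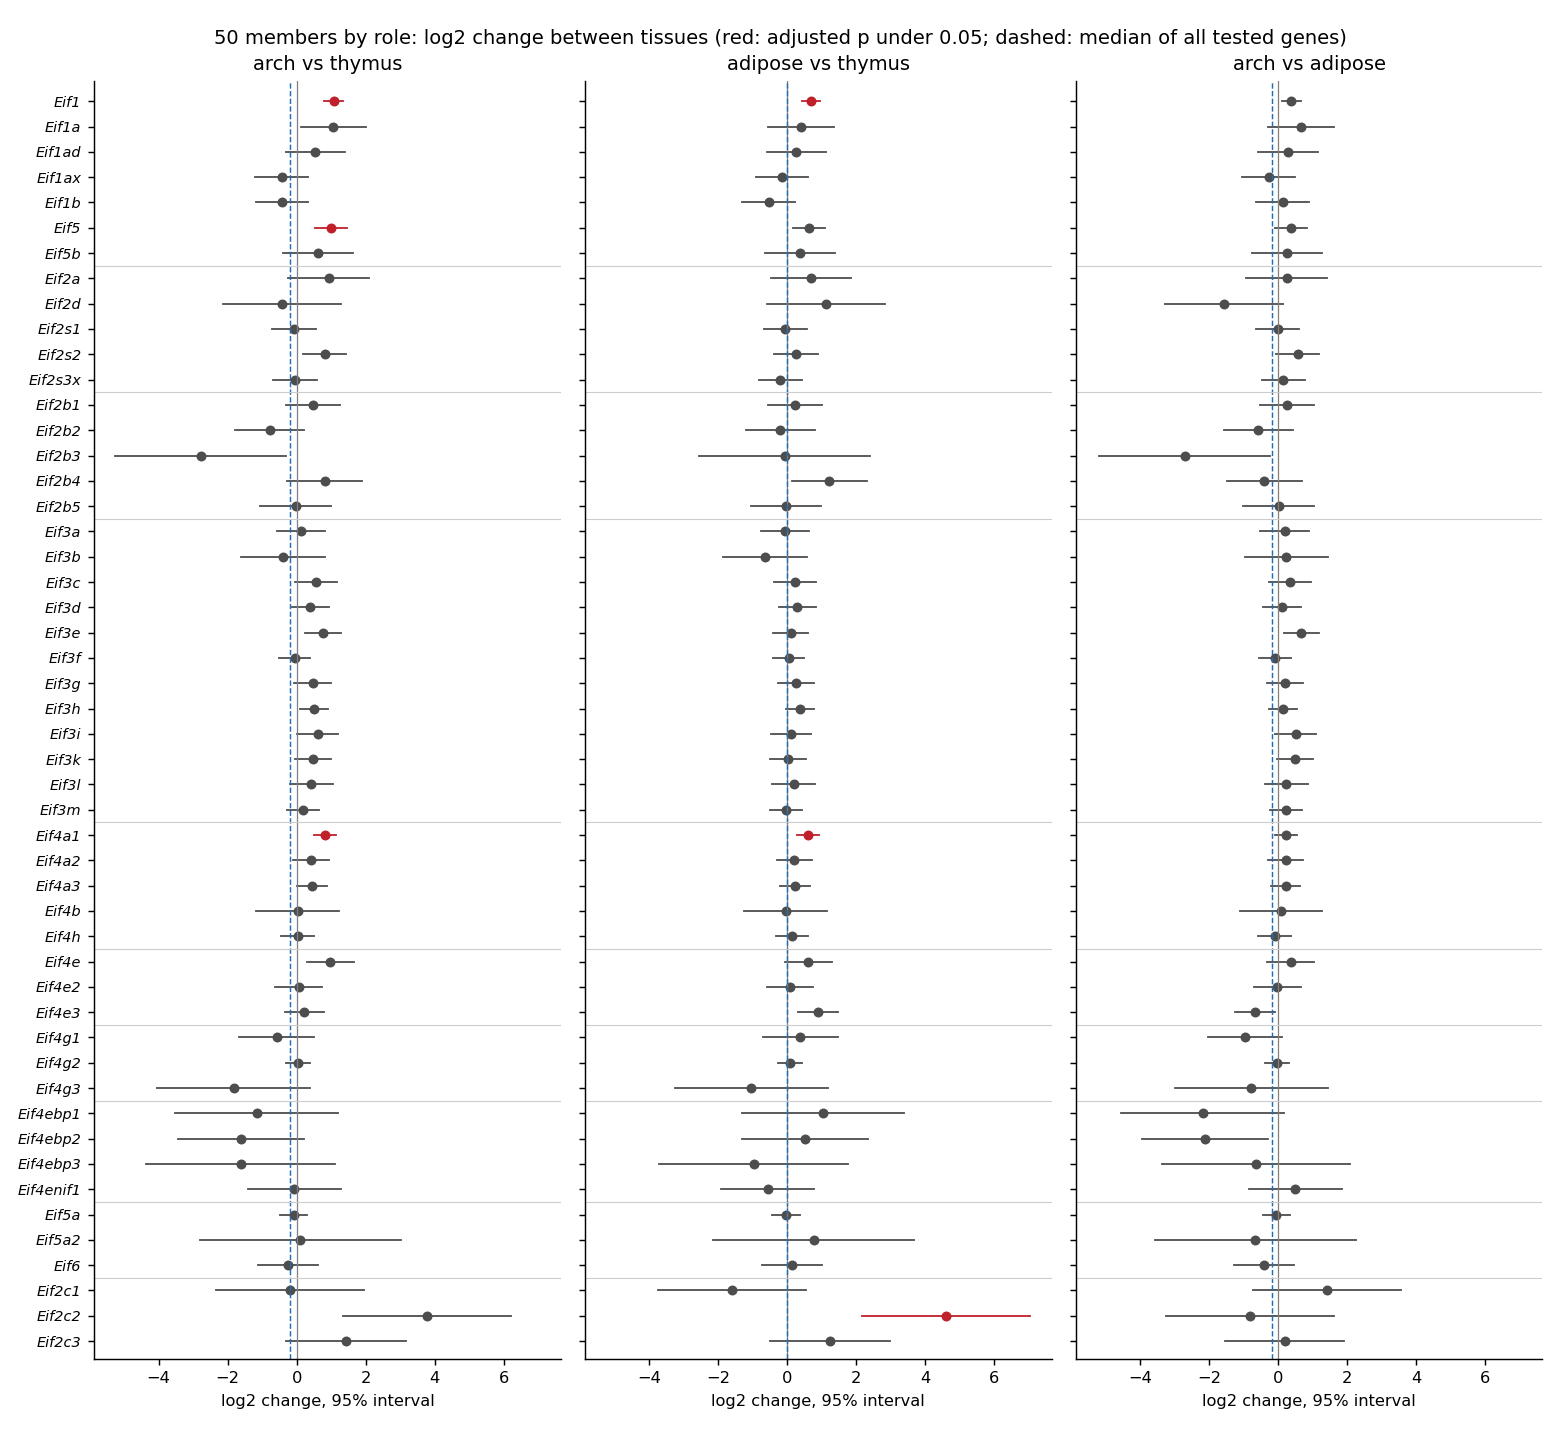
Log2 change (x axis, pseudocount 20) with its 95% confidence interval for the 50 members, grouped by role, in the 3 comparisons; red marks an adjusted p under 0.05 by limma and the dashed line is the median of all tested genes. Intervals are narrow for Eif1, Eif4a1 and Eif5, at 1.07, 0.83 and 1.00 in arch against thymus, and wide for the eIF4E inhibitors and Argonaute genes.

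Arch against adipose, the comparison of the 2 tissues that were both digested, gave 0 called members in either direction by limma and by edgeR. DESeq2 called 1, Eif1, higher (adjusted p = 0.0339). Few genes of any kind were called by limma, 0.0988% higher and 0.0769% lower. At an unadjusted p under 0.05, 2 members were higher (Eif1 and Eif3e) and 3 lower (Eif2b3, Eif4e3 and Eif4ebp2), which is 4% and 6% of the members against 3.51% and 6.96% of all tested genes. The pools were separate with arch above for 2 members (Eif1 and Eif3e, against 2.46% of all tested genes) and with arch below for 2 (Eif4e3 and Eif4g1, against 2.89%).

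The Eif1 difference between arch and adipose was 0.39 ± 0.13 on the log2 scale (95% confidence interval 0.12 to 0.66; limma, adjusted p = 0.344). Eif5 was at 0.38 ± 0.22 and Eif4a1 at 0.22 ± 0.15, with overlapping pools. Eif4ebp2 had 2308, 873, 560 and 340 in adipose and 657, 116, 135 and 63.7 in arch pools. Arch pool 1 lay inside the adipose range and the other arch pools below it, and the estimate of -2.13 ± 0.87 was not called (limma, adjusted p = 0.425).

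Among the members the SE fell with their level. Part of this is built in, since the test draws each gene's variance towards a trend with level. The median SE of a log2 change was 0.348 over the members and 0.826 over all tested genes, from 0.128 for Eif1 to 1.39 for Eif5a2, a second eIF5A gene with 0 reads in 2 thymus pools. The genes called in arch against thymus were among the members with the highest counts, although Eif4g2 and Eif5a, at similar levels and SEs of 0.163 and 0.193, had estimates near 0.

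**Figure D5:**
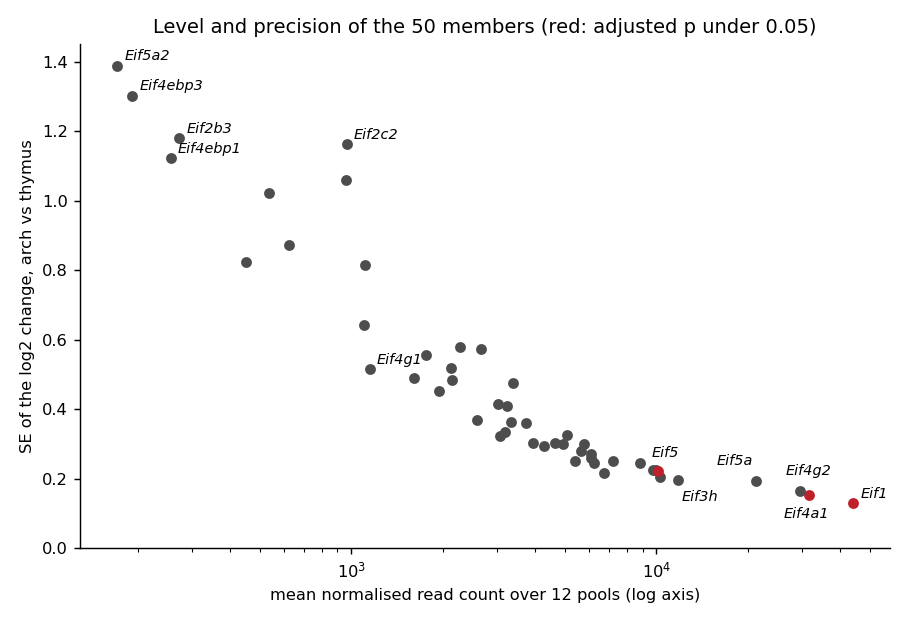
SE of the log2 change in arch against thymus (y axis) against the mean normalised read count over 12 pools (x axis, log scale) for the 50 members; red marks an adjusted p under 0.05 by limma. The SE falls from 1.39 for Eif5a2 to 0.128 for Eif1.

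Other genes of the pathway were taken from a list of 55 translation genes, of which 51 were in the table and 47 were tested. The list was chosen with earlier results of these data known. Its share of calls, beside that of all tested genes, is therefore a description and not evidence of an excess. In arch against thymus 7 of the 47 were called higher and 0 lower, where 3.99% and 2.58% of all tested genes were, and 5 of the 7 belonged to the group of eIF2 kinases, phosphatase subunits and targets (10 tested). In adipose against thymus 4 were called higher, 3 of them from that group, and 0 lower, where 2.17% and 0.670% of all tested genes were. In arch against adipose none was called by limma. At an unadjusted p under 0.05, 3 of the 47 were higher and 2 lower there (6.38% and 4.26%), near the 3.51% and 6.96% of all tested genes. The median over the 47 was 0.19, 0.34 and -0.08 in these comparisons.

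Eif2ak3, the eIF2 kinase of the endoplasmic reticulum, had a normalised read count of 670 ± 263 in thymus, 4109 ± 1704 in arch and 5904 ± 3397 in adipose (SD, n = 4), which is 2.57 ± 0.47 and 2.93 ± 0.47 on the log2 scale (limma, adjusted p = 0.00218 and 0.000927). Impact, an inhibitor of the eIF2 kinase that senses amino acid lack, stood at 599 ± 382, 3744 ± 1688 and 2440 ± 223 in the same order (2.66 ± 0.44 and 2.15 ± 0.44; limma, adjusted p = 0.000824 and 0.00799). Both were separate from thymus in all pools.

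Atf4, a transcription factor whose messenger is translated when eIF2 is phosphorylated, rose by 1.95 ± 0.37 in arch against thymus (limma, adjusted p = 0.00269), a call lost without the 3 pools with the fewest reads per library (1.40, adjusted p = 0.0685). Ppp1r15a, a phosphatase subunit that reverses eIF2 phosphorylation, rose by 4.31 ± 0.83 in arch (adjusted p = 0.00315) and by 3.16 ± 0.83 in adipose cells (adjusted p = 0.0456), where the call was lost in 14 of 23 alternatives, edgeR and DESeq2 among them. Ddit3, a target of Atf4, rose by 1.94 ± 0.51 in arch cells (adjusted p = 0.0274). Ppp1r15a and Atf4 belong to the stress response, as do the 14 genes whose sum ranked the tissues in the same order, and whether this touches these values was not tested.

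Of 12 mTORC1 and eIF4 regulators, Rheb, the small GTPase that activates mTORC1, was the only call in arch against thymus, from 3278 ± 1177 to 9709 ± 547 (SD, n = 4; 1.64 ± 0.30, limma, adjusted p = 0.00218), and none was called in adipose cells. Etf1, the release factor that reads stop codons, rose in both tissues, by 1.10 ± 0.28 in arch (adjusted p = 0.0228) and by 1.17 ± 0.28 in adipose (adjusted p = 0.0233), where the call was lost without thymus pool 3 or without adipose pool 1, 3 or 4. Of 8 elongation factor genes none was called in arch against thymus, with Eef1a1, which brings tRNAs to the ribosome, at 0.33 ± 0.13 (adjusted p = 0.133).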

How the data were processed

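Polyadenylated RNA of sorted cells was read as 50 bp single ends after 18 amplification cycles, per the labels' protocols, without molecular identifiers. Per the submitters' processing notes, FastQC 0.11.5 and STAR 2.6.0c were used with build GRCm38. How reads were counted, with which annotation and strand setting, is not given in the sources used here. Normalised signal values per gene and pool were deposited by the authors, with libraries of a pool combined. All 120369 values above 0 (100%) were whole multiples of the column's smallest step within 0.01, so read counts were recovered.

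Because the deposited unit is not a raw count, limma 3.58.1 (R 4.3.3) with an intensity trend on log2(value + 20) was the main test, in 1 fit over 12 columns with tissue as the only term and the pool as replicate. The filter kept genes that reached 100 in 4 or more columns, and p-values adjusted by Benjamini-Hochberg over all 9106. Adding 20 draws the log2 change of low genes towards 0. A fold on this scale can still exceed the ratio of the means where pools are near 0. For Eif2c2 in adipose against thymus the 2 were 24.4 and 20.2. edgeR 4.0.16 and DESeq2 1.42.0 on the recovered reads were alternatives, which called 278 and 613 genes higher in arch against thymus where limma called 363. Ratios were tested by exact permutation of pools (70 assignments, 9 tests). The limma test of arch against thymus was also run on simulated reads, with results not given here. CPM were taken from the normalised values. Exon lengths come from GENCODE and promoters from RefSeq. Pool numbers were not used to pair columns.

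Named members are those called in any comparison, the highest and the lowest-p member of each role group and the genes of the ratios; other members were named to complete their group. Named translation genes are up to 4 per comparison with the smallest p; Ddit3 and Eef1a1, and Ppp1r15a and Etf1 in arch cells, were added after their values were seen. The members and lists were chosen with earlier results of these data known.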

Additional observations from a re-analysis of the deposited data

Results flagged for a closer look

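Within a tissue, 15 of the 150 groups of 4 pools (50 members in 3 tissues, 10%) held a pool set apart from the other 3 by a gap that takes up most of the group's range. Chance flags about 1 in 20 groups. In thymus, Eif2a stood at 2546 in pool 3, Eif2c2 at 403 and Eif5a2 at 923 in pool 1, and Eif2d at 1288 in pool 4, each above the rest. In adipose, Eif2s1 was low at 3241 in pool 1 and Eif4e2 low at 2006 in pool 2, while Eif2s2 was high at 5426 in pool 2 and Eif4a3 high at 12506 in pool 3. In arch, Eif2s1 was low at 2683 and Eif4b and Eif4ebp2 high at 5116 and 657 in pool 1. Arch pool 2 was high for Eif3e at 11289 and low for Eif4g1 at 502, and arch pool 3 was high for Eif2b3 at 292 and Eif5a2 at 552. Eif1, Eif4a1 and Eif5 had no such pool in any tissue.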

How the results depend on the processing

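Eif1, Eif4a1 and Eif5 in arch against thymus and Eif1 in adipose against thymus kept their direction and call in all 23 alternatives. Members called higher in arch against thymus numbered 5 with DESeq2 (Eif3e and Eif3h added), and 3 to 4 without 1 pool. In adipose against thymus the count of 3 became 1 (Eif1) with no filter on low values and with only the tissues compared in the fit, 4 with DESeq2 (Eif4e3 and Eif5 added, Eif2c2 lost), and ranged from 1 to 3 without 1 pool; the cause was not tested. In arch against adipose it was 1 with DESeq2 and 0 in all fits without 1 pool. The counts of members called lower were 0 in every alternative. No called result reversed, while several uncalled estimates near 0 changed sign, such as that of Eif6 in arch against thymus (-0.53 to 0.52). Over the named single genes, 41 values lost and 11 gained a call and 1512 did neither. Most of these values belong to results not called in the main fit, which could not lose a call. The losses were Ppp1r15a (14 of 23 alternatives), Eif2c2 (13), Eif4a1 (9) and Etf1 (4) in adipose against thymus, and Atf4 (1) in arch against thymus.

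With pool number as a replicate block, 4 members were called higher in arch against thymus (Eif2c2 added), 3 in adipose against thymus and 0 in arch against adipose. Correlations between same-numbered pools were -0.03 to 0.08, and 3, 5 and 3 of 8 columns correlated best with their own number. Mean correlations were 0.010, 0.040 and 0.010 for same numbers against -0.003, -0.013 and -0.003 for other numbers. These small values do not settle whether same-numbered pools are pairs, and the main fit does not treat them as such. Depth limits the weak members: the pseudocount of 20 equals 10.5 to 35.3 reads, and the SE of a log2 change reaches 1.39 (Eif5a2) where it is 0.128 for Eif1.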
